A study of Arabidopsis thaliana with 4 samples.

Results

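Regions of chromatin where acetylated histone H3 (H3ac) was called in Arabidopsis leaf and not in leaf-derived callus are described here. They were selected on the measured values themselves, as merged H3ac regions on the 5 nuclear chromosomes that the authors' list credits to the leaf library and not to the callus library. There were 1643 of them among 20185 nuclear and 20264 merged H3ac regions, and 15687 others were called in both tissues and 2855 in callus alone. All plants were of the Col-0 ecotype, with treatment given as none. The leaf samples are titled mature leaf, though the growth protocol speaks of parental leaves and gives no age for them. How far leaf and callus donors differ in age is thus not stated. Callus, an unorganised dividing tissue, was grown for 15 days on callus-inducing medium (CIM) from leaf pieces of seedlings aged 2 weeks. Each tissue gave 1 library per mark, 4 in all, made with antibodies against H3ac and against histone H3 trimethylated at lysine 4 (H3K4me3). Nothing below therefore has a replicate check or a test, and each contrast is between libraries. Leaf and callus also hold different mixtures of cells, and fewer cells carrying a mark and less of the mark per cell cannot be told apart.

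Acetyl groups on the tails of histone H3 are added by histone acetyltransferases and removed by deacetylases, and acetylated H3 is found mainly around the starts of genes in use. H3K4me3 is laid down by methyltransferases of the Trithorax type at the starts of transcribed genes and often occurs with H3ac. In leaf, genes of photosynthesis, of the epidermis and of chemical defence are among those in use, while callus grown on CIM is known for features of root tissue.

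The regions called in leaf alone were short and low. Their median length was 232 bp, with quartiles of 151 and 396 bp and a longest region of 2059 bp, and 521 of them (31.7%) had the shortest length in the list, 151 bp. Their median score, the authors' own value per region, was 56, with quartiles of 39.2 and 104.3 and a highest value of 648.1. Regions called in both tissues had a median length of 837 bp and a median score of 296.3, although their scores combine both libraries. Only 39 leaf-only regions (2.37%, exact Clopper-Pearson 95% interval 1.69 to 3.23) reached that median. Regions called in callus alone had much the same shape, with a median length of 234 bp and a median score of 52.1, and 91 of them (3.19%) reached the median of the shared regions. These lengths and scores belong to the calls that chose the regions and are a description.

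**Figure D1:**
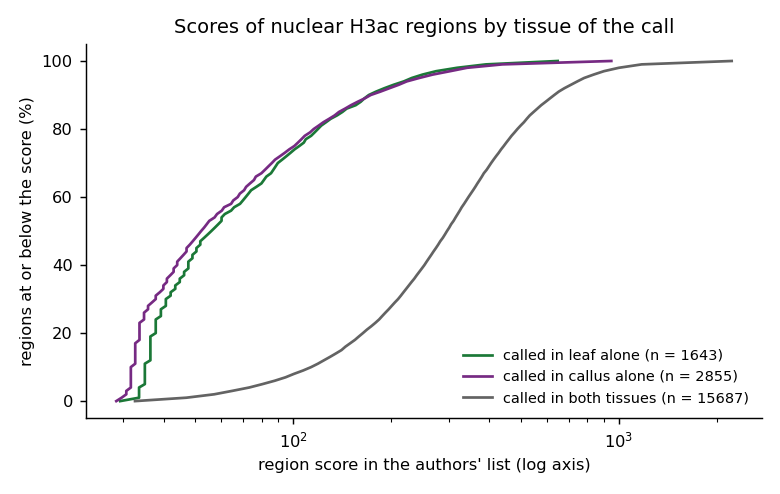
Score of each nuclear H3ac region in the authors' list (log axis) against the percentage of regions at or below that score, for regions called in leaf alone (n = 1643), in callus alone (n = 2855) and in both tissues (n = 15687). The curves of the 2 single-tissue classes run close together, with medians of 56 and 52.1, and lie to the left of the shared regions, with a median of 296.3.

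Leaf scores lay on even steps of 1.4 and callus scores on steps of 1.02, for all regions with scores up to 150 within a tolerance of 0.12. If the steps follow library depth, the callus to leaf ratio of depth was 1.37 for H3ac and 1.02 for H3K4me3. The weakest leaf-only region had a score of 29.4, or 21 steps, the weakest callus-only region 28.6, or 28 steps, and the weakest region called in both tissues 32.65. Whether the steps follow library depth was not tested. A region just under the call threshold in callus counts as leaf-only. The file headers do not say whether 1 step is 1 sequenced tag. If it is, the exact Poisson 95% interval is 422 to 507 tags for the 463 steps of the highest-scoring region and 15.4 to 35.7 tags for a region of 24 steps, counting error only.

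Leaf-only regions were spread over all 5 chromosomes, where they made up 7.42% to 9.11% of the H3ac regions. Some stood close to an H3ac region called in callus, whether shared by the tissues or called in callus alone. This distance was not measured for the other classes of H3ac regions. The median distance to the nearest H3ac region called in callus was 1202 bp, with quartiles of 421 and 2790 bp, and 741 (45.1%) lay within 1000 bp of one. Along the chromosomes 1204 stood alone between regions called in callus. None of the 1643 was among the 1540 nuclear H3ac regions (7.63%) that the authors' deposited table lists as higher in callus, a contrast that the selection itself used.

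The H3K4me3 libraries took no part in the selection. A leaf-only H3K4me3 region overlapped 281 of the 1643 H3ac regions (17.1%, 15.3 to 19.0), against 2.38% of all nuclear H3ac regions, 1.16% of those called in both tissues and 0.630% of those called in callus alone. An H3K4me3 region called in callus overlapped 564 (34.3%, 32.0 to 36.7), at 545 of them one called in both tissues, against 82.1% of all nuclear H3ac regions and 94.0% of those shared by the tissues. The other 798 (48.6%) overlapped no H3K4me3 region, against 15.6% of all nuclear H3ac regions, 4.99% of shared ones and 54.9% of callus-only ones. Compared with all nuclear H3ac regions, leaf-only ones thus more often overlapped a leaf-only H3K4me3 call and less often one in callus. Only 882 of the 18483 nuclear H3K4me3 regions were called in leaf alone, so the counts 281 and 564 do not compare directly. The interval bounds cover counting error only, and neighbouring regions and regions of 1 library are not replicates.

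**Figure D2:**
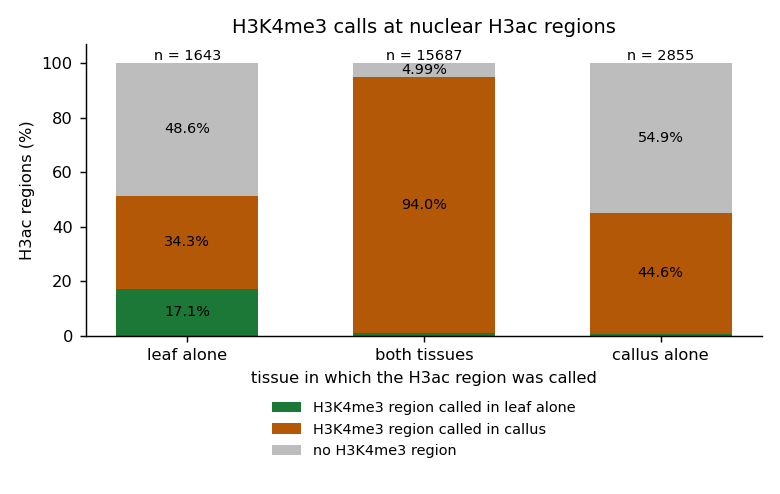
Percentage of nuclear H3ac regions (vertical axis) that overlap an H3K4me3 region called in leaf alone, one called in callus, or none, for H3ac regions called in leaf alone, in both tissues and in callus alone. The leaf-alone bar holds 17.1% with a leaf-only H3K4me3 region and 34.3% with one called in callus, while the shared bar holds 94.0% called in callus.

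H3K4me3 calls went with the H3ac score. The leaf-only regions were split at the quartiles of their score into 4 score groups. Among the 456 of the lowest group, 8.77% overlapped a leaf-only H3K4me3 region, and the shares in the next groups were 8.82%, 18.4% and, for the 411 regions with scores of at least 105, 32.6%. Over the same groups the share with no H3K4me3 region went from 62.9% to 57.2%, 46.3% and 27.0%. The share with an H3K4me3 call in callus went from 28.3% to 34.0%, 35.3% and 40.4%. Over all nuclear H3ac regions the share was 82.1% for an H3K4me3 call in callus and 2.38% for a leaf-only one. Higher-scoring regions thus more often overlapped an H3K4me3 region of either kind. The share within 500 bp of a protein-coding gene rose too, from 76.5% in the lowest group to 91.2% in the highest. Whether closeness to genes or region length accounts for the trend was not tested. For regions called in callus alone, only the share with a callus-only H3K4me3 region and no other was taken by score group. It was 8.40% in the lowest group and 30.3% in the highest.

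**Figure D3:**
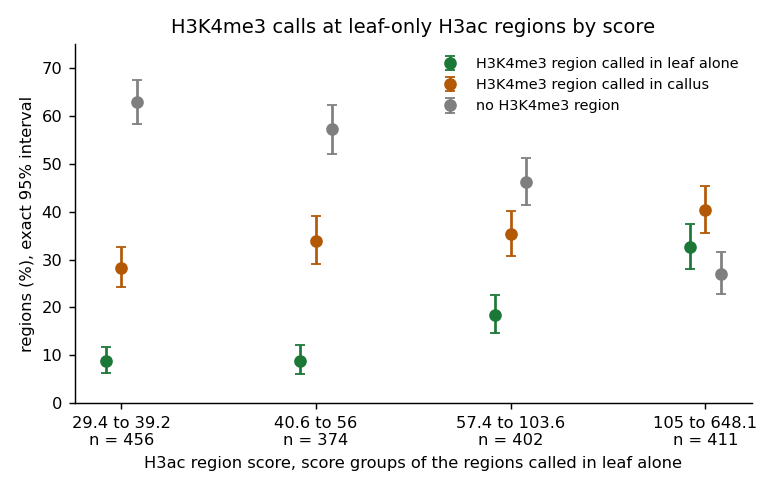
Percentage of leaf-only H3ac regions in each H3K4me3 class (vertical axis, with exact 95% intervals for counting error) by score group of the H3ac region (horizontal axis). The share with a leaf-only H3K4me3 region is 8.77% in the lowest group and 32.6% in the highest, and the share with none is 62.9% and 27.0%.

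The H3K4me3 classes also differed in what lay around them. The 281 regions with a leaf-only H3K4me3 region had a median score of 99.4 and a median length of 377 bp, and 23.5% of them lay within 1000 bp of an H3ac region called in callus. The 798 with no H3K4me3 region had a median score of 47.6 and a length of 192 bp, 41.4% had the shortest length, and 56.3% lay within 1000 bp of such a region. The 564 with an H3K4me3 call in callus stood between them, at 61.6, 244.5 bp and 40.1%. Seen from the other mark, 269 of the 882 nuclear H3K4me3 regions called in leaf alone (30.5%) overlapped a leaf-only H3ac region, 183 (20.7%) a shared one and 418 (47.4%) no H3ac region at all. Of the H3K4me3 regions called in both tissues, 3.24% overlapped a leaf-only H3ac region and 5.77% none, and of those called in callus alone 1.4% and 55.1%. An absent H3ac call was thus common at H3K4me3 regions of either single tissue.

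At leaf-only H3ac regions, H3K4me3 regions called in both tissues had a median score of 277.25 (n = 527), against 508.7 at shared H3ac regions (n = 14335) and 268.2 at callus-only ones (n = 799). These scores combine both tissues, so how much H3K4me3 callus kept at these places was not measured here. The authors' deposited table lists 4 of the 527 (0.759%) as higher in callus for H3K4me3, against 1.4% of those at shared and 18.9% of those at callus-only H3ac regions. The table lists only regions higher in callus, and regions higher in leaf were not analysed here.

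Most leaf-only regions lay at genes. Within 500 bp of a protein-coding gene lay 1367 (83.2%, 81.3 to 85.0), against 92.4% of all nuclear H3ac regions, 96.4% of shared ones and 75.4% of callus-only ones, and 1202 (73.2%) overlapped a gene body. Of these regions, 312 were within reach of more than 1 gene and count for each of them. They touched 1572 genes, or 8.28% of the 18981 genes with an H3ac region. In 619 of these genes (3.26% of the same base) every H3ac region was leaf-only, whereas 886 also had a region called in both tissues and 148 one called in callus alone. Counted by gene, a leaf-only region thus more often had a shared H3ac region at the same gene (886) than leaf-only H3ac calls alone (619).

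Among the 619 genes with leaf-only H3ac calls alone, 175 (28.3%) had leaf-only H3K4me3 calls alone, 294 (47.5%) had an H3K4me3 region called in both tissues and none in leaf alone, and 118 (19.1%) had no H3K4me3 region. Across all genes with an H3ac region, 1.72% had leaf-only H3K4me3 calls alone, 91.7% were of the second kind and 2.40% had no H3K4me3 region. An H3K4me3 region listed as higher in callus in the authors' deposited table lay at 58 of the 1572 genes (3.69%), against 6.71% of all genes with an H3ac region.

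The genes named here by score or length are those with an annotated symbol, and some regions at genes without one, or at no gene, were as strong or as long. The highest score belonged to PIF7, a phytochrome-interacting basic helix-loop-helix factor of the shade response. Its region, chr5:24639176-24640575 in the TAIR10 build, had a score of 648.1 and lay wholly inside the gene, though within 500 bp of a neighbouring gene too, with no H3ac region called in callus within 2655 bp. The H3K4me3 region over it, chr5:24639040-24640641, was called in leaf alone too, with a score of 540.6. PIF7 thus carried neither call in callus, and its 1400 bp of H3ac compare with the median of 232 bp.

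ACD6, an ankyrin-repeat membrane protein that acts in salicylic acid defence and cell death, had the longest leaf-only region, 2059 bp at chr4:8294498-8296556 with a score of 494.2, inside a leaf-only H3K4me3 region with a score of 621.4. The extensin-like gene ELP had a region with an H3ac score of 567 and an H3K4me3 score of 571.8, and the nearest H3ac region called in callus was 11119 bp away. At ACL, also annotated as a methyl esterase, the scores were 399 and 704.7. These genes, like PIF7, had leaf-only calls alone in both marks.

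Other high-scoring genes differed in their second mark. PAL1, which encodes phenylalanine ammonia-lyase at the entry to phenylpropanoid synthesis, had a leaf-only region with a score of 554.4 next to a shared H3ac region, and its H3K4me3 calls all included callus. IGMT4, an indole glucosinolate methyltransferase, had leaf-only H3ac regions alone, the strongest with a score of 504, beneath H3K4me3 called in callus, and the bZIP transcription factor gene BZIP61, at 431.2, was of the same kind. PETE1, a plastocyanin that carries electrons between the photosystems, had a leaf-only region at 470.4, with a shared H3ac region 348 bp away. FUM2, the cytosolic fumarase, had a leaf-only region in each mark, at 462 for H3ac and 414.9 for H3K4me3, beside regions called in callus. The phloem lectin-like gene PP2-A5, at 407.4, had regions of both kinds in each mark.

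Among genes with an annotated symbol, the longest regions besides those of ACD6, IGMT4, PIF7, ELP, FUM2 and BZIP61 lay at BGAL2, a beta-galactosidase (1442 bp), LTPG2, a lipid transfer protein anchored at the cell surface (1365 bp), LOG1, a cytokinin-activating enzyme (1275 bp), and BZIP34 (1213 bp). BGAL2, LTPG2 and LOG1 had every H3ac call in leaf alone, while BZIP34 also had a callus-only H3ac region.

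A symbol was annotated for 89 of the 175 genes with leaf-only calls alone in both marks. The 10 that ranked highest in both scores were ACL, ACD6, SCPL13, NUDT8, ELP, BGAL2, HBI1, PIF7, CIL and ALDH11A3. HBI1, a basic helix-loop-helix factor that promotes growth, combined an H3ac score of 288.4 with an H3K4me3 score of 999 over 1920 bp. ALDH11A3, a glyceraldehyde-3-phosphate dehydrogenase of the cytosol, had 257.6 and 1008.2, with an H3K4me3 region of 1848 bp. CIL, related to a chloroplast import factor, had 372.4 and 450.2, SCPL13, a serine carboxypeptidase-like protein, 330.4 and 582.5, and NUDT8, a nudix hydrolase, 306.6 and 575.9. The H3ac scores and the H3K4me3 scores come from different libraries and are not on a common scale.

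Genes of the light reactions had leaf-only H3ac regions at 10 of the 38 list members with an H3ac region (26.3%, 13.4 to 43.1), against 8.28% of all genes. They were the antenna genes LHCA2 (score 350), Lhca6 (184.8) and CAB1 (168), the photosystem I subunits PSAD-2 (266), PSAO (235.2), PSAL (162.4) and PSAE-1 (44.8), and PSBQA (228.2), PSBP-2 (72.8) and PSBO2 (35) of the oxygen-evolving complex. Of all 1572 genes with a leaf-only H3ac region, 619 had none called in callus, which is the base for such counts here and below. In 4 of the 10, LHCA2, PSAD-2, CAB1 and PSBP-2, no H3ac region was called in callus. In the others a shared H3ac region remained, and for PSAO, Lhca6, PSAL, PSAE-1 and PSBO2 a region called in callus lay within 1000 bp of the leaf-only one. Without leaf-only regions so close to callus-called ones, the share was 13.2%. The share over all genes under this setting is not given here, so 8.28% is not its base. The regions credited to PSAL and PSAE-1 lay outside those genes, 417 and 218 bp away. All 10 genes had H3K4me3 calls that included callus, and none had a leaf-only H3K4me3 region. Antenna genes such as CAB1 have near copies whose reads can be mixed up, so its value is uncertain.

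Carbon fixation and photorespiration had leaf-only H3ac regions at 11 of 33 genes (33.3%, 18 to 51.8). No H3ac region was called in callus at 8 of these 11, against 619 of all 1572 genes with a leaf-only one. The carbonic anhydrase genes CA1 and CA2, GAPB, a chloroplast glyceraldehyde-3-phosphate dehydrogenase subunit, and RBCS1B, a Rubisco small subunit, had leaf-only H3K4me3 calls alone. CA1 combined an H3ac score of 249.2 with an H3K4me3 score of 854.4 across chr3:195736-198120, although 2 shared H3ac regions also lay at this gene. GAPB had 145.6 and 953.5 across chr1:16126994-16129257, CA2 91 and 875.3, and RBCS1B 77 and 786.4. The leaf-only H3K4me3 regions at these 4 genes were long, from 2033 bp at RBCS1B to 2385 bp at CA1. Rubisco small subunit genes are near copies of each other, and the value of RBCS1B is uncertain for that reason.

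The other 7 kept H3K4me3 calls in callus. Their H3ac scores were 172.2 at CAT2, the peroxisomal catalase of photorespiration, 170.8 at HCEF1, the chloroplast fructose-1,6-bisphosphatase, 116.2 at both GAPA-2 and GLDP1, the glycine decarboxylase P protein, 93.8 at GLU1, a ferredoxin-dependent glutamate synthase, 79.8 at FBA2, a plastid aldolase, and 37.8 at AT1G11860. At GAPA-2 another H3K4me3 region, within 500 bp of this gene and of 2 others, is listed as higher in callus in the authors' deposited table, with a fold of 12.04 from 78.3 callus and 6.5 leaf tags. At CAT2 a region called in callus began 84 bp from the leaf-only one. The light reactions had no gene of 10, and carbon fixation and photorespiration 4 of 11, with H3K4me3 calls in leaf alone. Among the 1572 genes with a leaf-only H3ac region, 207 (13.2%) had H3K4me3 calls in leaf alone. Another 67.1% of the 1572 had H3K4me3 called in both tissues and none in leaf alone. The difference between the lists was not tested.

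Chlorophyll synthesis and plastid transcription had 4 of 20 (20.0%, 5.73 to 43.7): the protochlorophyllide reductases POR C (176.4) and PORB (44.8), GUN4 (173.6), a regulator of chlorophyll synthesis, and the plastid sigma factor SIG4 (173.6). H3K4me3 was called in callus at all 4, and only GUN4 had no H3ac region in callus. Among light signalling and greening regulators, 2 of 21 genes (9.52%) had a leaf-only region, PIF7 and the GATA factor gene GNC (37.8), and among clock genes 1 of 25 (4%), the CONSTANS-like gene COL2 (53.2). Callus-only H3ac regions lay at 4 genes in each of these 2 lists. They also lay at 3 of the 20 chlorophyll and plastid transcription genes, POR C among them.

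**Figure D4:**
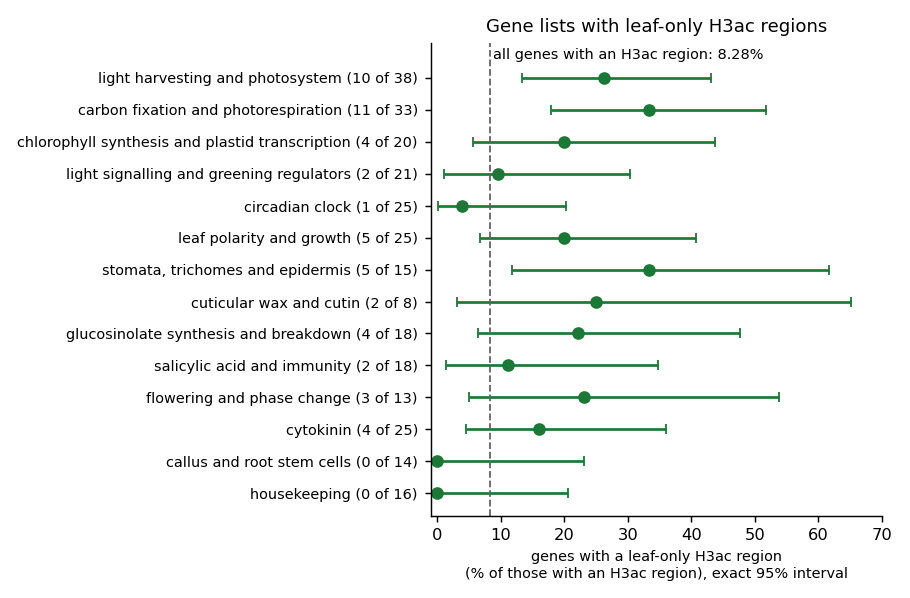
Percentage of the genes with an H3ac region that had a leaf-only one (horizontal axis, with exact 95% intervals for counting error) for 14 gene lists, with the value for all genes, 8.28%, as a dashed line. The highest shares, 33.3%, belong to carbon fixation and photorespiration and to stomata, trichomes and epidermis, and the lists of callus and root stem cell genes and of housekeeping genes have none.

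Of 15 genes of the stomata, trichome and epidermis list with an H3ac region, 5 had a leaf-only one (33.3%, 11.8 to 61.6). ATML1 and PDF2, paired homeodomain factors that specify epidermal cells, had H3ac scores of 109.2 and 72.8 and leaf-only H3K4me3 regions with scores of 200.3 and 139.5. STOMAGEN, a secreted peptide from inner leaf cells that promotes stomata, had 74.2 and 233. For these 3 genes every call of either mark was made in leaf alone, and no H3ac region called in callus lay within 3913 bp. The stomatal receptor-like protein gene TMM (44.8) and EPF2 (35), a peptide that restrains stomata, each also had a shared H3ac region. H3K4me3 was called in callus at TMM, EPF2 had no H3K4me3 region, and the region credited to EPF2 lay 65 bp outside it.

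In cuticle synthesis 2 of 8 genes (25%) had a leaf-only region. GPAT8, an acyltransferase of cutin synthesis, had leaf-only calls alone in both marks, with scores of 82.6 and 147.2. KCS6, which elongates very long fatty acids for wax, had a score of 228.2 over 1017 bp, with a region called in callus 269 bp away.

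Leaf polarity and growth genes had 5 of 25 (20.0%, 6.83 to 40.7), all with low scores. They were YAB5 (50.4), KAN (46.2), both factors of the lower leaf side, and the growth-regulating factors GRF1 (37.8), GRF4 (36.4) and GRF5 (33.6). The regions at GRF1, GRF4 and GRF5 had the shortest length of 151 bp. GRF6, which the list does not hold, had a leaf-only H3ac region of 527 bp with a score of 141.4, overlapping leaf-only H3K4me3. YAB5 and GRF5 had leaf-only calls alone in both marks, while KAN, GRF1 and GRF4 had shared H3ac regions and H3K4me3 called in callus.

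Defence lists gave mixed second marks. Of the 18 genes of the glucosinolate list with an H3ac region, which does not hold IGMT4, 4 (22.2%) had a leaf-only region: ESP (219.8) and ESM1 (95.2), which steer glucosinolate breakdown, FMO GS-OX3 (47.6), a side-chain oxygenase, and AT2G31790 (130.2). ESP had no H3K4me3 region, and AT2G31790 had a leaf-only one with a score of 385.8. FMO GS-OX2, which the list does not hold either, had leaf-only H3ac regions with scores of 275.8 and 175. The first overlapped no H3K4me3 region and the second a leaf-only one. Callus-only H3ac regions lay at 3 genes of this list, FMO GS-OX3 among them, and 2 genes had callus-only H3ac calls alone. In salicylic acid and immunity 2 of 18 (11.1%) had a leaf-only H3ac region, EDS16 (112) and PBS3 (54.6). EDS16 is the isochorismate synthase of salicylic acid synthesis, and PBS3 a later enzyme of it. Both had no H3ac region in callus, and H3K4me3 was called in callus at EDS16.

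Regulators of flowering had 3 of 13 (23.1%, 5.04 to 53.8). All 3 were without an H3ac region in callus, against 619 of all 1572 genes with a leaf-only one. SNZ, an AP2-type repressor of flowering, had an H3ac score of 229.6 and a leaf-only H3K4me3 region with a score of 526.3, and no H3ac region called in callus lay within 8018 bp. FLC, the MADS-box repressor of flowering, had 120.4, and AGL8, also called FRUITFULL, 58.8, both at genes with H3K4me3 called in callus.

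Cytokinin genes had 4 of 25 (16.0%, 4.54 to 36.1). LOG1 had leaf-only calls alone in both marks, with scores of 347.2 and 380.2. The region credited to LOG7, another activating enzyme, had a score of 168 and lay 83 bp outside the gene, which also had 3 shared H3ac regions. H3K4me3 at LOG7 was called in leaf alone, with a score of 152.8, and did not overlap the leaf-only H3ac region. CKX4, a cytokinin oxidase, had 95.2 and a leaf-only H3K4me3 region at 128.3, beside shared ones. ARR7, a response regulator that damps cytokinin signalling, had 50.4, with H3K4me3 called in callus.

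No leaf-only region lay at the 14 callus and root stem cell genes with an H3ac region (0%, up to 23.2), 8 of which had callus-only calls alone, nor at the 16 housekeeping genes (up to 20.6). Callus-only H3ac regions lay at 3 of the housekeeping genes. They lay at 2 genes each of the carbon fixation, leaf polarity and cytokinin lists. The light reaction and stomata lists had 1 such gene each, and the cuticle, salicylic acid and flowering lists none. The lists were set beside all genes as a description, since the calls counted are those that chose the regions.

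**Figure D5:**
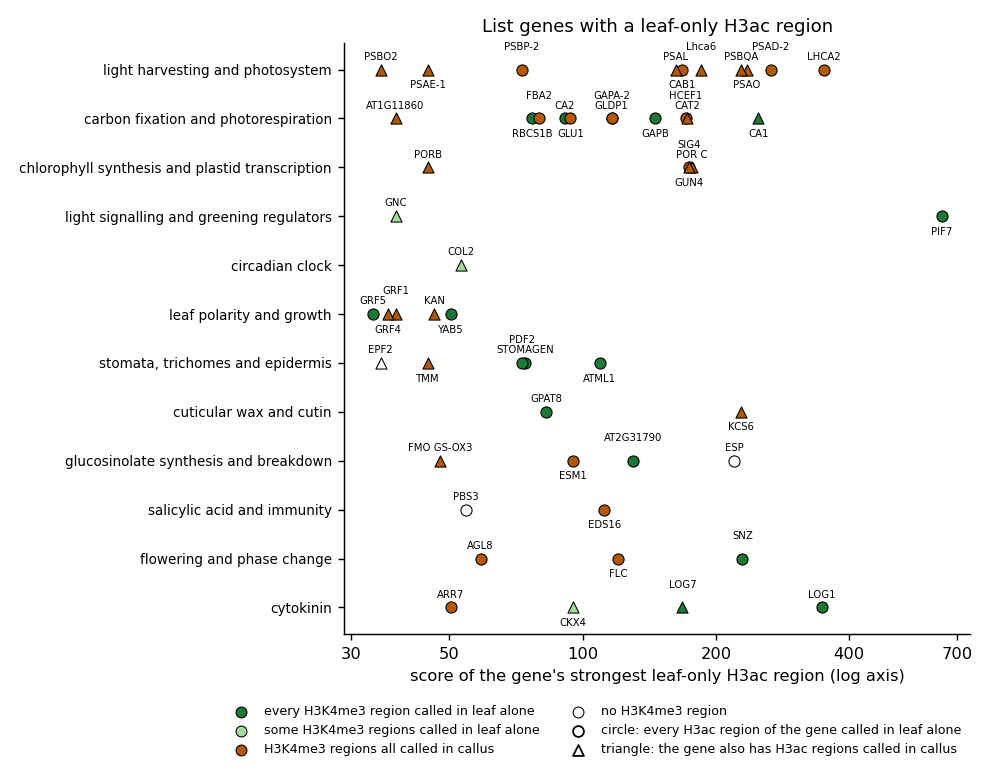
Score of the strongest leaf-only H3ac region (horizontal log axis) at each of the list genes that had one, by list; the fill gives the gene's H3K4me3 calls and the shape whether the gene also had H3ac regions called in callus. All 10 genes of the light reactions have H3K4me3 called in both tissues and none in leaf alone. The same holds for 67.1% of all genes with a leaf-only H3ac region. Of the epidermal genes, ATML1, PDF2 and STOMAGEN are leaf-only throughout and TMM and EPF2 are not.

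At some genes with a leaf-only H3ac region, an H3K4me3 region was listed as higher in callus. In the authors' deposited table the fold for H3K4me3, callus over leaf, was 48.37 at AT3G62110, 47.51 at AT3G28650, 30.77 at AT5G12340, 17.87 at AT1G18090 and 17.18 at BAM6, a beta-amylase gene. The tags behind the BAM6 value in the authors' deposited table were 77.3 in callus and 4.5 in leaf, and those behind AT3G62110 were 193.5 and 4. AT3G28650 and AT5G12340 had only 2 leaf tags each, against 95 and 61.5 in callus. AT1G18090 had 116.2 in callus and 6.5 in leaf. In none of the 5 did the H3K4me3 region overlap the leaf-only H3ac region. All but BAM6 also had a callus-only H3ac region, and the leaf-only region credited to AT5G12340 lay 401 bp outside it. At BAM6 the leaf-only H3ac region had a score of 184.8, no H3ac region was called in callus, and a leaf-only H3K4me3 region with a score of 198.8 overlapped it. The H3K4me3 region listed as higher in callus at BAM6 was within reach of a neighbouring gene too, as were those at AT3G62110 and AT1G18090.

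Away from protein-coding genes stood 276 leaf-only regions, at a median distance of 1067.5 bp and at most 16251 bp from the nearest one. They were weak, with a median score of 46.2, and 249 of them (90.2%) overlapped no H3K4me3 region, while 10 overlapped a leaf-only one. Annotated non-coding genes or pseudogenes accounted for a minority: 24 overlapped a long non-coding RNA gene, and 227 overlapped no annotated gene of any kind.

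A few of these were strong. The highest score, 539, was at chr5:24903774-24905394, which is 642 bp from AT5G61990 and 301 bp from an H3ac region called in callus, and another at chr5:24906672-24907375, with a score of 204.4, lay close by. The next were chr4:16743774-16744703 (320.6), 1485 bp from LOG5, chr5:271601-272275 (270.2), 556 bp from SCAR4, and chr5:17827994-17828596 (218.4), which overlaps the pseudogene AT5G44255. None of these 5 overlapped an H3K4me3 region.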

How the data were processed

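Chromatin immunoprecipitation libraries from leaf and callus were sequenced, 1 per tissue and mark, and no input library enters the tables. The build was TAIR10, and HOMER 4.10.4, SAMtools 1.11 and Bowtie2 2.3.4.3 were used, per the submitters' processing notes. Per the file headers, HOMER mergePeaks joined regions that had been called in each library. Call settings: not given in the sources used here. The deposited score of a region is the authors' value and only describes or ranks regions. The deposited signal (tags in 147 bp, callus scaled to leaf) and the fold, a ratio of callus to leaf of at least 2, came from HOMER's comparison of tag numbers, per the file headers, for regions higher in callus.

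Leaf-only regions were joined to 27444 protein-coding genes of a RefSeq gene table (TAIR10.1) within 500 bp, and to H3K4me3 regions overlapping by at least 1 bp. Overlap code was tested on simulated data. Intervals are exact binomial (95%), for counting error only. Total library depth is unknown. The members and lists were chosen with earlier results of these data known. Genes were named by rule: 10 genes with a symbol each by score, by length and by both marks, up to 6 per list, and 5 by callus fold. PSAL, PSBP-2, PSAE-1, PSBO2, GLU1, CA2, FBA2, RBCS1B, AT1G11860, GRF6 and FMO GS-OX2 were added after their values were seen. Promoter sequence and strand were not used here, so the planned motif search was not run. pandas 2.3.3, numpy 2.4.6, scipy 1.17.1 and matplotlib 3.10.9 were used.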

Additional observations from a re-analysis of the deposited data

How the results depend on the processing

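The share within reach of a gene, 83.2%, was 73.2% with no margin and 90.5% with 1000 bp. For the 829 regions at or above the median score it was 87.8%, and for the 1122 above the shortest length, a choice made after seeing the data, 85.9%. For these 829, for the 902 with no H3ac region called in callus within 1000 bp and for the 1122, the share with a leaf-only H3K4me3 region, 17.1%, became 25.2%, 23.8% and 21.0%, and the share with one called in callus, 34.3%, became 37.9%, 37.5% and 37.3%. Asking for overlap of at least 50% of the H3ac region gave 15.6% and 32.7%. Genes with leaf-only H3ac alone numbered 619, and 404 with regions at or above the median score. The light reactions' share, 26.3%, was 13.2%, or 5 of 38 genes, without regions near callus-called ones, and 21.1% to 25.6% under the other alternatives. Matching shares over all genes are not given here for these settings. No paired analysis was possible because each tissue has 1 library per mark. How library depth bears on the weakest calls was not tested.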

Other observations

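Some leaf-only H3ac regions stood in rows with no region called in callus between them: 164 rows of 2, 29 of 3 and 6 of 4. One row of 4 ran over the neighbouring glucosinolate methyltransferase genes IGMT2 and IGMT4 in 4.73 kb, with scores from 33.6 to 504. Another had regions at AT1G51790 and IOS1, a leucine-rich repeat receptor kinase gene, with scores from 159.6 to 310.8. A row over AT4G33010 (GLDP1), CBL10, a calcium sensor, and AT4G32990, had H3K4me3 called in callus at all 4 regions, whereas a row of 4 with 2 regions at the kinase gene WNK1 and 2 at no protein-coding gene overlapped no H3K4me3 region. Tandem copies such as IGMT2 and IGMT4 can share reads, and their values are uncertain.

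Several gene families were picked out after their values were seen, so their counts are values without support. All 3 OPR genes with an H3ac region (OPR1, OPR2 and OPR3, oxophytodienoate reductases, OPR3 being the one of jasmonate synthesis) had a leaf-only region, though only 1 had leaf-only H3ac alone and none had a leaf-only H3K4me3 region. A single leaf-only region, with a score of 51.8, counted for both OPR1 and OPR2, although OPR1 had another with a score of 78.4. The region at OPR3 had the shortest length, 151 bp, and a low score of 33.6. The homeodomain genes HDG1, HDG8 and HDG11, relatives of ATML1, were 3 of 6 with an H3ac region. A leaf-only region lay at 7 of 25 cysteine-rich receptor-like kinases (CRK), 8 of 39 receptor-like proteins (RLP) and 7 of 23 beta-glucosidases (BGLU). Callus-only regions lay at 4 of these CRK, 7 of these RLP and 8 of these BGLU genes, and at no OPR or HDG gene. For all genes with an H3ac region the share with a leaf-only one was 8.28%.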
